A study of Mus musculus with 12 samples.

Results

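Hepcidin and the genes through which liver takes up, stores and releases iron were followed in RNA sequencing of whole mouse liver with and without a mammary tumour elsewhere in the animal. The 10 genes, of 22557 in the deposited table, were Hamp, Hamp2, Tfrc, Tfr2, Trf, Slc40a1, Bmp6, Id1, Smad7 and Fth1. They were chosen by gene symbol, with earlier results of these same libraries in view, among them the low Hamp2 of tumour-bearing wild-type (WT) mice. That contrast of Hamp2 is therefore given below as a description without a p-value, and no result on the 10 genes counts as independent support for it. All 10 genes reached 10 normalized reads in 3 or more libraries and so were among the 17380 genes tested.

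Livers came from age-matched female mice of 2 genotypes, WT and Mtdh knockout (KO). Each genotype was taken either normal, with no tumour, or bearing a tumour of Py8119, a mouse mammary carcinoma cell line. Each of the 4 groups held 3 livers from different mice. Mtdh encodes metadherin, a membrane and RNA-associated protein studied in cancer and in liver lipid metabolism. The labels give no other allele or agent. The sources used here do not give the strain, the ages, the site or size of the tumours, or whether Mtdh was deleted in all tissues. The labelled material is all cells of the liver, so that in these bulk samples fewer cells of a type and less RNA per cell cannot be told apart.

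Hepcidin is a small peptide hormone that hepatocytes secrete. It binds ferroportin, the only known cellular iron exporter, and lowers the release of iron from macrophages, gut and liver into plasma. Transcription of hepcidin rises with iron through bone morphogenetic proteins (BMPs), made mainly by sinusoidal endothelium, and their SMAD signal, and rises in inflammation through interleukin 6 and STAT3. It falls when red cell production draws on iron.

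Values are normalized reads: reads per gene divided by a size factor for each library, as deposited. The libraries held an estimated 25700000 to 43000000 reads, except the first liver of KO mice with a tumour, which held 12700000. That library also had the fewest genes above 0, 14899, and the lowest mean correlation with the others, 0.831. The third liver of KO mice without a tumour stood apart by its small nuclear and small nucleolar RNA, 5.32% and 4.84% of its total. Results on KO groups are given with and without these 2 libraries where they bear on the value. Mtdh itself was at 3950 to 5700 normalized reads in the 6 WT livers and at 323 to 1060 in the 6 KO livers, with the highest KO value in the library of 12700000 reads. All 7 hepatocyte markers were above 0 in every library, and their summed level was 2310000 to 2590000 in WT without a tumour and 3140000 to 3600000 in WT with a tumour. Alb made up most of it, at 2070000 to 2300000 and 2850000 to 3350000. The 6 mammary epithelium markers summed to 2270 to 2950 and 4350 to 5560 in these groups. Most of that sum was Krt8 and Krt18, which liver epithelium also expresses, while the basal keratin Krt14 was at 36.9 to 46.3 and 40.3 to 55.3.

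Mice carry a pair of hepcidin genes side by side on the minus strand of chromosome 7, Hamp at chr7:30641793-30643458 and Hamp2 at chr7:30621797-30624107 (mm39, from the deposited table). Hamp encodes the active hormone, and Hamp2 is its duplicate. Their coding sequences are 92.5% identical and share a stretch of 80 bases, by alignment of GENCODE M21 transcripts, so the reads of either gene could be assigned in part to the other and their separate values are uncertain to that degree. The 250 bases before each start are shown because the paired promoters are nearly the same, at 89.7% identity, while the genes' values were not. Both are from RefSeq (GRCm38.p6), minus strand, written 5′ to 3′, Hamp from chr7:30944030-30944279 and Hamp2 from chr7:30924182-30924431. Capitals mark GGCGCC, the core of the BMP-responsive element known from hepcidin promoters, and TTCNNNGAA, the STAT core.
Hamp: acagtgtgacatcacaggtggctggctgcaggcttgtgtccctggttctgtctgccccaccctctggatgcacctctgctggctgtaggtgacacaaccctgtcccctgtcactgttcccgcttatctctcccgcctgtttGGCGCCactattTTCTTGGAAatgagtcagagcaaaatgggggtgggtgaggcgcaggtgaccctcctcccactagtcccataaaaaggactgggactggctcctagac
Hamp2: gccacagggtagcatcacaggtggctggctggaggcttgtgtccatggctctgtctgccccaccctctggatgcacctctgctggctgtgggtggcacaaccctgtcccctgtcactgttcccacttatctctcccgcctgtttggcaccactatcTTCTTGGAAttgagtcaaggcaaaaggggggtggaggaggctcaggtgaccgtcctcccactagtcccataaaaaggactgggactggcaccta
Hamp held GGCGCC 109 bases before its start and TTCTTGGAA 97 bases before it. Hamp2 held TTCTTGGAA at 94 bases and no GGCGCC, since the bases aligned with that core read GGCACC, the substitution G4A counted from 1 at the core's 5′ end with the Hamp base first. Each motif reads the same on both strands, and the matches do not overlap. GGCGCC was found in 9.59% and TTCNNNGAA in 7.02% of 32851 RefSeq promoter windows of this length. Of the 10 genes 6 matched an entry in that table. Tfrc also held GGCGCC, 89 bases before its start, and Bmp6 held an E-box, CACGTG, 127 bases before its start, which 6.02% of the windows hold. Trf, Slc40a1, Id1 and Smad7 were not among the entries. A match describes letters in a window, not a site in use.

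Hamp2 was low in every liver of WT mice with a tumour and in no other liver. It read 2975, 1833 and 2104 in WT without a tumour, and 74.2, 613 and 32.1 in WT with a tumour. KO livers held 2754, 2594 and 2898 without a tumour and 1943, 2434 and 1618 with it. The ranges of WT with and without a tumour did not overlap, and the lowest KO value lay above the highest WT value with a tumour. The tumour contrast in WT was -4.29 ± 0.70 (SE) on the scale of log2(value + 1), which is the scale of every fold change below. In KO it was -0.48 ± 0.70 (limma's linear model, p adjusted over all genes = 0.769, with a threshold of 0.05). The KO ranges did not overlap either as deposited or under quantile normalization, and did overlap once the libraries were rescaled to 1 total.

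Group means of Hamp2 ran from 2749 ± 152 (SD, n = 3) in KO without a tumour through 2304 ± 597 in WT without and 1998 ± 411 in KO with a tumour to 240 ± 324 in WT with a tumour. The ranges of the first and second of these groups overlap, as do those of the second and the third, and only the last lies apart from its neighbour. The WT tumour contrast was between -5.5 and -3.39 when each of the 12 libraries was left out in turn. Its lowest size, -3.39, came without the third WT liver with a tumour and its largest without the second.

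Hamp varied far more between mice of a group than Hamp2. It read 4429.5, 4696 and 589 in WT without a tumour and 31.0, 5890 and 64.2 in WT with a tumour. In KO it read 3383, 727 and 6012 without a tumour and 6843, 2652 and 2265 with one. A single WT liver with a tumour, the second, therefore held 1 of the 3 highest Hamp values of the series, while the other two held the lowest. The tumour contrast was -3.32 ± 1.47 in WT (limma, adjusted p = 0.545) and 0.49 ± 1.47 in KO (adjusted p = 0.896), and the ranges overlapped in both. Without the second WT liver with a tumour the WT contrast became -5.66 ± 0.92 and passed the threshold (limma, adjusted p = 0.0137). That liver was singled out by its Hamp value, so this pass is no support for a change. The WT contrast was -1.9 at the other end of the range over libraries left out. In KO the contrast was 0.64 ± 1.79 without both libraries that stand apart.

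The pair did not keep a constant ratio. Hamp divided by Hamp2, with no correction for transcripts of 410 and 437 bases, was lowest, at 0.28, in the third WT liver and in the second KO liver without a tumour. In these livers Hamp was the lowest of its group, at 589 and 727, while Hamp2 was at 2104 and 2594, above the lowest liver without a tumour, which held 1833. The ratio was highest, at 9.61, in the second WT liver with a tumour, where Hamp2 was at 613 and Hamp at 5890. In that liver the low Hamp2 of its group was therefore seen with a high Hamp.

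**Figure D1:**
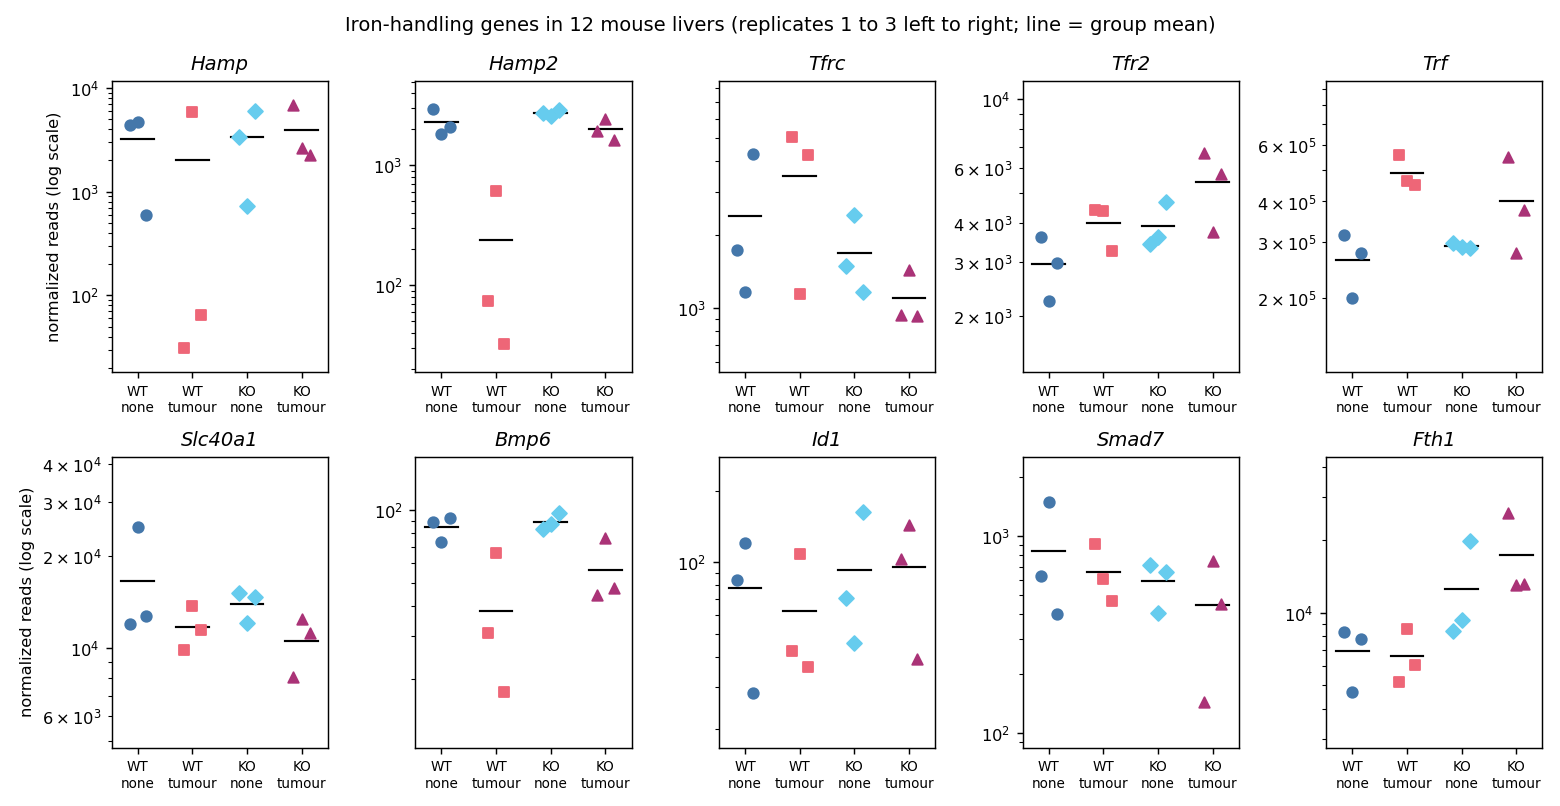
Normalized reads (log scale) of the 10 genes in the 12 livers, 3 per group from left to right as replicates 1 to 3, with a line at each group mean. Hamp2 is low in all 3 WT livers with a tumour, at 32.1 to 613, while Hamp is low in 2 of them and at 5890 in the second.

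Of the receptors and carriers of iron, Tfrc encodes transferrin receptor 1, which imports transferrin-bound iron. Fth1 encodes the ferritin heavy chain, which stores iron, and Slc40a1 encodes ferroportin. The messages of these 3 genes are textbook targets of iron regulatory proteins, which bind a stem-loop called the iron-responsive element: in a 3′ untranslated region (UTR) they protect the message, and in a 5′ UTR they block its translation. Matches to the element are shown because this control can alter the level of Tfrc RNA, while a block of translation need not alter Fth1 or Slc40a1 RNA. Protection of messages was not measured here, and a level of Tfrc RNA is no measure of it. The search asked for an unpaired C, 5 paired bases on each side and the loop, printed in capitals, in GENCODE M21 transcripts (GRCm38). In order they come from Fth1 (chr19:9982732-9982760, plus strand, 5′ UTR), Slc40a1 (chr1:45925465-45925493, minus strand, 5′ UTR) and Tfrc (plus strand, 3′ UTR, chr16:32631219-32631247, chr16:32631598-32631626, chr16:32631663-32631691 and chr16:32631710-32631738).
Fth1: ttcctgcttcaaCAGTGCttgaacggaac
Slc40a1: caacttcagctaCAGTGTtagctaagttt
Tfrc, first match: aattatcggaagCAGTGCcttccataatt
Tfrc, second match: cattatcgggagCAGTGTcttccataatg
Tfrc, next match: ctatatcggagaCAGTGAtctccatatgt
Tfrc, last match: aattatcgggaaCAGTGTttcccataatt
Such a match was found in 108 of 21875 genes, 0.494%. Hamp, Hamp2, Tfr2, Trf, Bmp6 and Id1 held no match. Smad7 was not covered by the listing of matches, so whether it holds one is not known here.

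Tfrc read 1720, 1162 and 4286 in WT without a tumour and 5032, 1138 and 4265 in WT with a tumour. KO livers held 1491, 2402 and 1156 without a tumour and 937, 1431 and 925 with one. The 3 livers with the highest Tfrc were the 3 with the lowest Hamp, and the remaining WT liver with a tumour held a low Tfrc. The tumour contrast was 0.50 ± 0.53 in WT (limma, adjusted p = 0.907) and -0.58 ± 0.53 in KO (adjusted p = 0.618). Single livers moved it: it ran from 0.10 (without the second WT liver with no tumour) to 1.18 (without the second WT liver with a tumour) in WT, and from -0.82 to -0.29 in KO (without the third and the second KO liver with no tumour).

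Tfr2 encodes transferrin receptor 2, a hepatocyte sensor of transferrin iron. It read 3606, 2250 and 2972 in WT without a tumour, 4399, 4366 and 3257 in WT with one, 3428, 3591 and 4668 in KO without and 6741, 3726 and 5738 in KO with one. The ranges overlapped within each genotype, and the contrasts were 0.46 ± 0.25 in WT (limma, adjusted p = 0.677) and 0.44 ± 0.25 in KO (adjusted p = 0.437).

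Trf encodes transferrin, the plasma carrier. It read 313658, 199669 and 276625 in WT without a tumour, and 558958, 463720 and 448850 in WT with a tumour, where every value lay above those without. KO livers held 297168, 289411 and 285777 without a tumour and 548750, 275392 and 375682 with one, and these overlapped. The contrasts were 0.92 ± 0.49 in WT (limma, adjusted p = 0.672) and 0.40 ± 0.49 in KO (adjusted p = 0.716), and the KO value was 0.13 ± 0.54 without both libraries that stand apart. The summed hepatocyte markers were also higher in WT with a tumour, by the ranges given above, but most of that sum was Alb. By gene, 4 of the 7 markers had a positive contrast in WT and 3 a negative one, with a median of 0.05. Their part in the Trf values was not tested.

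Slc40a1 read 11990, 24889 and 12778.5 in WT without a tumour, 9860, 13806 and 11462 in WT with one, 15153, 12116.5 and 14730.5 in KO without and 8053, 12491 and 11223.5 in KO with one. The second WT liver without a tumour was the highest by a wide margin. The contrasts were -0.43 ± 0.27 in WT and -0.42 ± 0.27 in KO, and neither passed (limma, adjusted p = 0.751 and 0.494). Without that liver the WT contrast was -0.09, and without both libraries that stand apart the KO contrast was -0.19 ± 0.33. Ferroportin is abundant in Kupffer cells, whose 10 markers summed to 5130 to 10600 in WT without and 7890 to 11900 with a tumour, and to 5400 to 11500 and 8160 to 13400 in KO. Their part in the Slc40a1 values was not tested.

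Fth1 was higher in KO than in WT livers in both tumour states as deposited, without passing the test. It read 8338, 4705 and 7767 in WT without a tumour and 5164, 8535 and 6081 in WT with one. KO livers held 8399, 9335 and 19681 without a tumour and 25855, 12977 and 13072 with one. Every KO value lay above every WT value of the same tumour state, in mice without a tumour only by 8399 against 8338. There the ranges overlapped under quantile normalization but not after rescaling to 1 total. The KO excess in mice with no tumour was 0.78 ± 0.36 (limma, adjusted p = 1). In tumour-bearing mice it was 1.34 ± 0.36 (adjusted p = 0.16), and neither passed. The highest Fth1 values, 19681 and 25855, were those of the 2 libraries that stand apart. Without both, the KO excess was 0.40 ± 0.27 without a tumour and 1.01 ± 0.27 with one (adjusted p = 1 and 0.25). The tumour contrasts of Fth1 were -0.06 ± 0.36 in WT and 0.50 ± 0.36 in KO (adjusted p = 0.996 and 0.525). Reads of Fth1 can also be shared with its processed pseudogenes, which makes its level uncertain. The ferritin light chain, Ftl1, had its highest values in the same 2 libraries, 42807 and 73483, and its tumour contrasts were -0.63 ± 0.50 in WT and 0.38 ± 0.50 in KO (adjusted p = 0.836 and 0.743).

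Bmp6, the main BMP ligand that raises hepcidin with liver iron, had low values. It read 89.2, 73.6 and 92.8 in WT without a tumour and 31.0, 66.2 and 17.7 in WT with one. KO livers held 83.2, 87.3 and 97.3 without a tumour and 44.4, 76.7 and 47.7 with one. In each genotype every value with a tumour lay below every value without as deposited and under quantile normalization. In both the ranges overlapped once the libraries were rescaled to 1 total. The contrasts of -1.32 ± 0.59 in WT and -0.70 ± 0.59 in KO did not pass (limma, adjusted p = 0.545 and 0.589). The 8 markers of sinusoidal endothelium, the main source of this ligand, summed to 7100 to 10100 in WT without and 11600 to 13900 with a tumour, and to 8380 to 10200 and 12700 to 18700 in KO. None of the 8 passed in either genotype (limma, 3 and 4 of 8 under an unadjusted p of 0.05, beside 8.67% and 12.7% of all genes). The contrast was positive for 7 of the 8 in WT and for 8 in KO. In each genotype 5 were higher without overlap, beside 17.5% and 16.8% of all genes in either direction. The part of these markers in the Bmp6 values was not tested.

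Id1 and Smad7 are direct targets of BMP and SMAD signalling. Id1 read 84.7, 121 and 28.4 in WT without a tumour, 42.5, 109 and 36.5 in WT with one, 70.9, 45.9 and 163 in KO without and 104, 144 and 39.2 in KO with one. Its contrasts were -0.26 ± 0.74 in WT and 0.05 ± 0.74 in KO (limma, adjusted p = 0.986 and 0.983). Smad7, an inhibitor in that pathway, read 628, 1490 and 401 in WT without a tumour, 908, 603 and 469 in WT with one, 713, 409 and 658 in KO without and 143, 746 and 450.1 in KO with one. Its contrasts were -0.18 ± 0.55 and -0.66 ± 0.55 (adjusted p = 0.987 and 0.582). Both genes overlapped between tumour states in both genotypes.

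**Figure D2:**
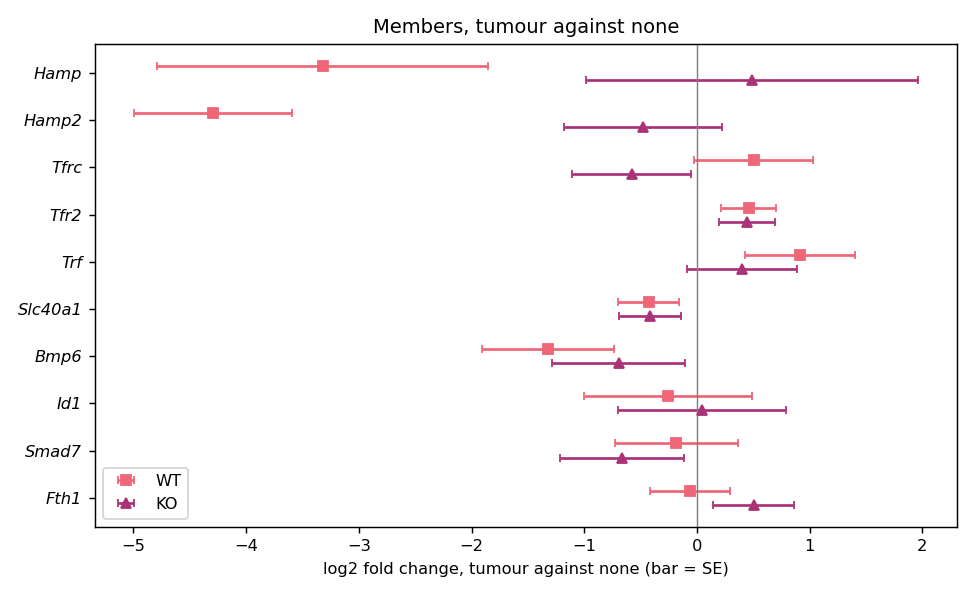
Log2 fold change of each of the 10 genes, tumour against none, in WT (squares) and KO (triangles), with bars for 1 SE from the fit over all 12 livers. Hamp2 is at -4.29 in WT and -0.48 in KO, and Hamp has the widest bars, at 1.47.

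For tumour against none in WT 1 of the 10 genes was past limma's threshold, beside 0.679% of all tested genes. That gene is Hamp2, whose value in this contrast led to the choice, so the count tests nothing. In WT 3 genes had ranges that did not overlap (Hamp2 and Bmp6 lower, Trf higher), beside 17.5% of all genes. In KO 0 of 10 passed, as did 0% of all genes, and 0 of 10 were under an unadjusted p of 0.05, beside 12.7% of all genes. There 2 genes were lower without overlap (Hamp2 and Bmp6), beside 16.8%. After rescaling to 1 total these counts without overlap were 2 in WT (Hamp2 and Trf) and 0 in KO. Under quantile normalization they were 3 in WT (Hamp2, Trf and Bmp6) and 2 in KO (Hamp2 and Bmp6).

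For KO against WT without a tumour 0 of 10 passed, beside 0.00575% of all genes, and 1 of 10 was under an unadjusted p of 0.05, beside 1.93%. There 1 gene (Fth1) did not overlap, beside 7.93%, with 1 after rescaling to 1 total and 0 under quantile normalization. With a tumour 0 of 10 passed, beside 0.023%, and 4 of 10 were under an unadjusted p of 0.05, beside 14.4%. There 2 genes (Hamp2 and Fth1) did not overlap, beside 17.9%. For the genotype by tumour interaction 0 of 10 passed, as did 0% of all genes, and 1 of 10 was under an unadjusted p of 0.05, beside 4.7%. Because the genes were chosen with these contrasts in view, nothing is read from the counts. The median contrast of the 10 genes was -0.22 in WT and -0.19 in KO, beside 0 and -0.08 over all tested genes.

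Livers of tumour-bearing KO and WT mice differed in Hamp by 3.90 ± 1.47 (limma, adjusted p = 0.266), in Hamp2 by 4.10 ± 0.70 and in Tfrc by -1.43 ± 0.53 (adjusted p = 0.261). These contrasts use the same 3 tumour-bearing WT livers as the contrasts of tumour against none and are not independent of them. Without the second of those livers the differences became 6.24 ± 0.92 for Hamp and -2.11 ± 0.45 for Tfrc, and both passed (limma, adjusted p = 0.0116 and 0.043). That liver was singled out by its Hamp and Tfrc values, so these passes are no support for a difference. Over all single livers left out the differences ran from 2.48 to 6.24 for Hamp and from -2.11 to -1.04 for Tfrc. The Hamp2 difference ran from 3.20 to 5.30. Without a tumour KO and WT differed by 0.09 ± 1.47 in Hamp, 0.28 ± 0.70 in Hamp2 and -0.35 ± 0.53 in Tfrc (adjusted p = 1 for each), and the Hamp value was -0.56 ± 1.67 without the third KO liver. The interaction, which tests whether the tumour contrast differs between genotypes, was 3.81 ± 2.08 for Hamp, 3.81 ± 0.99 for Hamp2 and -1.08 ± 0.75 for Tfrc. It did not pass for Hamp or Tfrc (adjusted p = 0.859 for each). For Hamp2, given without a test, it ran from 2.91 to 5.02 with single livers left out.

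Across the 12 livers Hamp and Tfrc moved in opposite directions. Pearson's r of their log2 values was -0.90 (permutation p = 0.00019, adjusted 0.00855 over 45 pairs of the 10 genes) and Spearman's rho was -0.76 (permutation p = 0.00595, adjusted 0.0831). Leaving out the 2 livers with Hamp farthest from its median gave r = -0.83. After subtraction of the group means r was -0.93 (permutation within groups, p = 0.00463, adjusted 0.139), a value that did not pass. It was -0.88 without both libraries that stand apart. These correlations were computed after the values had been seen. Of the 45 pairs 5 passed by Pearson's r, 1 by Spearman's rho (Hamp2 and Bmp6) and 0 within groups.

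Hamp and its BMP-target companion Id1 varied together, at r = 0.72 (permutation p = 0.00518, adjusted 0.0466) and rho = 0.78 (permutation p = 0.00424, adjusted 0.0831). Leaving out the 2 farthest livers gave 0.81, and within groups r was 0.74 (permutation p = 0.00849, adjusted 0.139). The call of this pair was lost in 9 of 12 omissions of a single liver (r from 0.67 to 0.78), after rescaling to 1 total, and at r = 0.67 without both libraries that stand apart. Correlations with Hamp2 contain the low WT livers that led to its choice and are given without p-values, and nothing is read from their place among the pairs that passed. Hamp2 and Bmp6 had r = 0.90, rho = 0.86 and, within groups, r = 0.92. That r was 0.45 without the 2 livers farthest in Hamp2, the first and the third WT livers with a tumour, so its size depends on them. The rho was not computed without them. Hamp against Hamp2 had r = 0.82 but rho = 0.39, and r = -0.23 without those livers, so this r rests on them.

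Trf and Slc40a1 were opposed, at r = -0.79 (permutation p = 0.00121, adjusted 0.0181) and rho = -0.71 (permutation p = 0.013, adjusted 0.117), and at -0.66 without the 2 farthest livers. Rescaling the libraries to 1 total gave -0.64 and quantile normalization -0.51, and neither passed, nor did 2 of 12 omissions of a single liver. Tfr2 and Fth1 had r = 0.76 (permutation p = 0.00449, adjusted 0.0466) and rho = 0.74 (permutation p = 0.00739, adjusted 0.0831), with 0.46 without the 2 farthest livers and 0.58 without both libraries that stand apart, and the call was lost in 8 of 12 omissions of a single liver.

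**Figure D3:**
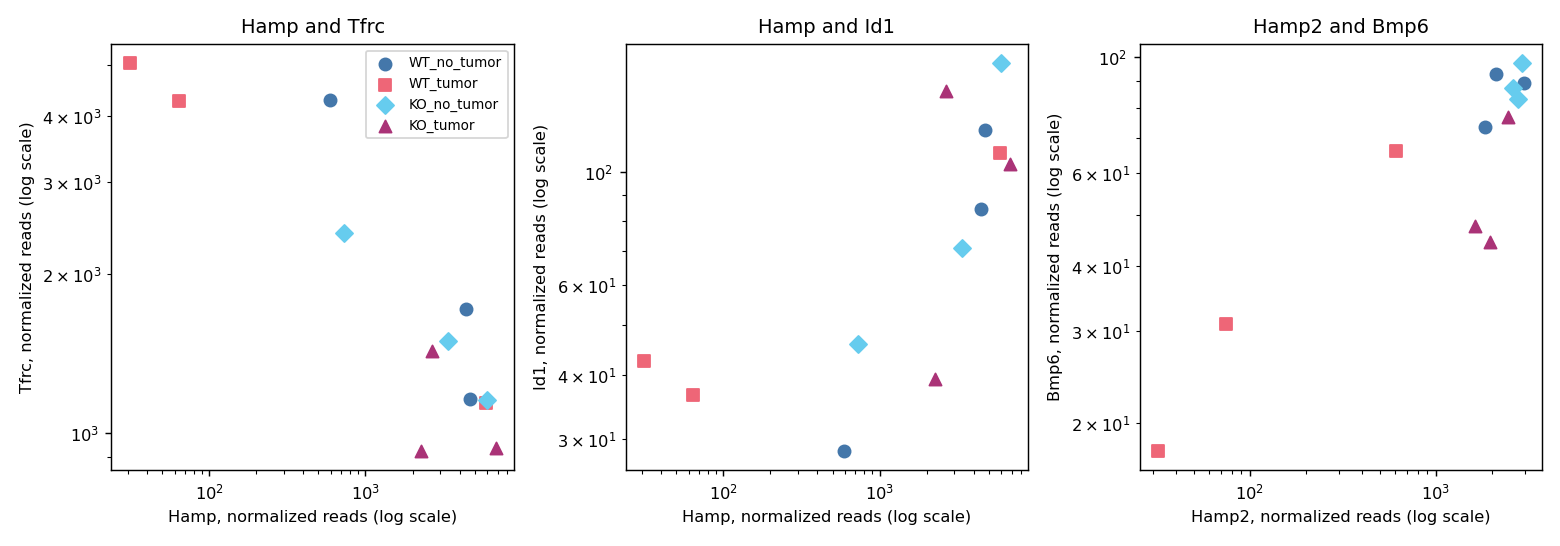
Normalized reads of Tfrc and Id1 against Hamp, and of Bmp6 against Hamp2, on log axes, 1 point per liver and 1 symbol per group. Tfrc falls as Hamp rises across the 12 livers (r = -0.90), while the spread of Hamp2 comes from the 3 WT livers with a tumour.

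By Pearson's r over the 12 livers, among 11130 named genes with a mean of at least 50, the genes most like Hamp were Ces1f (r = 0.946), Suox (0.938), Akr1c13 (0.923), Tcea3 (0.919) and Paics (0.91). Those most like Hamp2 were Crat (0.963), Adh1 (0.946), Cpt2 (0.941), Acaa1b (0.938) and Mtch2 (0.937). The lists had no gene in common. At the other end, looked at after the values had been seen, Tfrc had the second lowest r with Hamp (-0.9) of those genes, after Tcim (-0.919). The points share libraries and their scaling, and these r are descriptions.

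None of the 3 nearest tested genes on either side of the hepcidin pair passed the threshold in WT. Next to Hamp lies Usf2, at chr7:30644673-30656229 (mm39), which encodes a transcription factor, and its contrast was -0.84 ± 0.33 (limma, adjusted p = 0.45). The others on that side were Gm4673 at -0.35 ± 1.38 and Lsr at 0.12 ± 0.22, and on the Hamp2 side Cd22 was at 1.07 ± 1.26, Sbsn at 0.13 ± 1.47 and Tmem147os at -0.21 ± 1.30. The adjusted p of these 5 was at least 0.929.

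Among 75 tested genes of 79 on lists of other iron genes, 9 were higher and 1 lower with a tumour in WT by limma's threshold, beside 0.679% of all tested genes in either direction, and 18 were under an unadjusted p of 0.05, beside 8.67%. The median contrast was 0.19, beside 0 over all tested genes. In KO 0 of 75 passed (14 under an unadjusted p of 0.05, beside 12.7% of all genes), with a median of 0.10 beside -0.08. Erfe, Hephl1 and Ftmt are not analysed here, and Scara5 did not reach the minimum value.

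Of the listed genes of interleukin 6 and STAT3 signalling, which raises hepcidin in inflammation, Socs3, Stat3 and Il6st rose in WT with a tumour. All 6 listed genes had a positive contrast, and 3 of 6 passed. Socs3, a feedback inhibitor induced by STAT3, read 75.6, 51.5 and 63.4 without a tumour and 364, 484 and 394 with one, a rise of 2.69 ± 0.39 (limma, adjusted p = 0.00814). Stat3 itself rose by 1.17 ± 0.21 and Il6st, the shared receptor chain gp130, by 0.98 ± 0.18 (adjusted p = 0.0231 for each). Il6ra was at 0.46 ± 0.36 and did not pass (adjusted p = 0.836). So the 2 WT livers with the lowest Hamp held Socs3 at 364 and 394, and the liver with Hamp at 5890 held it at 484. In KO the contrasts of Socs3, Stat3 and Il6st were 0.94 ± 0.39, 0.48 ± 0.21 and 0.47 ± 0.18, and none passed (adjusted p = 0.372, 0.378 and 0.351). KO livers without a tumour already held Socs3 at 116, 134 and 210.5, above every WT liver without one (adjusted p = 1).

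Of 14 tested hepcidin regulators 1 passed. Fgl1, a hepatocyte-secreted protein that binds BMP6 and restrains hepcidin, read 5193, 4954 and 5725 in WT without a tumour and 24197, 27907 and 24835 with one, a rise of 2.28 ± 0.34 (limma, adjusted p = 0.00814). KO livers held 4248, 8090 and 11482 without and 14134, 12392 and 28076 with a tumour, which did not overlap either (1.21 ± 0.34, adjusted p = 0.324; 1.67 ± 0.36 without both libraries that stand apart). The iron sensor Hfe was at 0.27 ± 0.17 in WT, the BMP co-receptor Hjv at 0.26 ± 0.35, its protease Tmprss6 at 0.12 ± 0.22 and the ligand Bmp2 at -0.10 ± 0.30, and none passed (adjusted p = 0.756, 0.952, 0.974 and 0.987). In KO Bmp2 was at 0.67 ± 0.30, higher without overlap (adjusted p = 0.382).

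Of 7 tested BMP and SMAD targets 1 passed. Smad9, which encodes a receptor-regulated SMAD of the BMP pathway, read 648, 1321 and 550 in WT without a tumour and 131, 255 and 132 with one (-2.24 ± 0.41, limma, adjusted p = 0.0238). KO livers held 681, 348 and 495 without and 153, 278 and 275 with a tumour, also without overlap (-1.11 ± 0.41, adjusted p = 0.35). The companions Id2, Id3, Smad6 and Atoh8 did not pass in WT, at -0.26 ± 0.39, -0.39 ± 0.39, 0.58 ± 0.44 and 0.36 ± 1.35 (adjusted p = 0.962, 0.902, 0.829 and 0.993). In KO 2 of the 7 targets had a positive contrast and 5 a negative one, and 0 passed. Id4 went the opposite way to Smad9 there, higher without overlap. It read 105, 116 and 22.4 in KO without a tumour and 575, 165 and 279 with one, the highest contrast of the list at 2.18.

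Iron uptake and reduction had 2 of 9 tested genes higher. Steap4, a metalloreductase induced in inflammation, read 2256, 2498 and 2113 in WT without a tumour and 10144, 8077 and 8682 with one (1.97 ± 0.22, limma, adjusted p = 0.00157). It was the only 1 of the 10 called genes on these lists to pass with each of the 12 libraries left out in turn. Its KO contrast was 0.70 ± 0.22, without overlap (adjusted p = 0.327). Lcn2, lipocalin 2, which binds iron-carrying siderophores, rose from 48.5, 29.4 and 206 to 7220, 1252 and 4572 (5.67 ± 0.98, adjusted p = 0.0184), and in KO read 77.5, 97.8 and 642 without and 648, 139.8 and 1531 with a tumour (1.60 ± 0.98, adjusted p = 0.467). Neutrophils also carry Lcn2, and their 7 markers summed to 11.3 to 72.2 in WT without and 179 to 383 with a tumour, and to 25 to 80.1 and 17.3 to 123 in KO. Their part in the Lcn2 values was not tested. The importers Slc39a14 and Slc11a2 were at 0.89 ± 0.26 and 0.52 ± 0.30 in WT (adjusted p = 0.207 and 0.704). Slc39a14 stood at 15570 and 16279 in the 2 WT livers with the lowest Hamp and at 7711 in the second WT liver with a tumour.

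Of storage, chaperone and regulatory genes 0 of 7 tested passed, with 1 under an unadjusted p of 0.05 in WT. In WT 2 were lower without overlap and in KO 4, beside 17.5% and 16.8% of all genes in either direction. Ireb2, which encodes iron regulatory protein 2, was lower without overlap in both genotypes. It read 9939, 13444 and 9588 in WT without a tumour and 7123, 5071 and 8289 with one. KO livers held 12635, 8163 and 10787 without and 5856, 7081 and 6522 with a tumour. Ncoa4, the cargo receptor that delivers ferritin for breakdown, was at -0.31 ± 0.16 in WT, lower without overlap (limma, adjusted p = 0.659), and Fbxl5, which degrades iron regulatory protein 2 when iron is ample, at -0.16 ± 0.22 (adjusted p = 0.955). In KO Fbxl5 was at -0.71 ± 0.22, lower without overlap (adjusted p = 0.327). Ncoa4 was lower without overlap in KO as well, at 7388, 6592 and 6345 without and 6164, 6007 and 5435 with a tumour. Of iron export and oxidation 1 of 2 tested genes passed: Cp, ceruloplasmin, the plasma ferroxidase, rose from 36888, 36103 and 39891 to 83114, 79193 and 108046 in WT (1.25 ± 0.25, adjusted p = 0.038).

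In haem synthesis 1 of 9 tested genes passed: Alas2, the erythroid form of the first enzyme, rose from 249, 130.4 and 227 to 551, 669.7 and 564 in WT (1.60 ± 0.33, limma, adjusted p = 0.0422). The hepatocyte form, Alas1, read 11504, 8728 and 2667 without and 3785, 1139 and 1063 with a tumour (-1.96 ± 0.59, adjusted p = 0.221). The 11 erythroid markers of 12 listed that the table holds summed to 2070 to 4060 in WT without and 5680 to 10100 with a tumour, and to 2300 to 4060 and 2100 to 11300 in KO. Of these markers 5 were above 0 in every library of every group, and Rhag and Tspo2 were at 0 in all 3 WT livers without a tumour. The part of red cells and their precursors in the Alas2 values was not tested.

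Of haem scavenging, transport and breakdown 1 of 11 tested genes passed. Hpx, hemopexin, which clears free haem, rose from 19032, 24983 and 24751 to 96086, 88117 and 76708 in WT (1.93 ± 0.38, limma, adjusted p = 0.0356), and its partner haptoglobin, Hp, was at 1.90 ± 0.47, higher without overlap (adjusted p = 0.111). In KO Hpx was at 0.78 ± 0.38 and Hp at 1.04 ± 0.47 (adjusted p = 0.403 and 0.388). The haptoglobin-haemoglobin receptor Cd163, the hemopexin receptor Lrp1 and the haem-degrading enzyme Hmox1 were at 0.49 ± 0.45, 0.61 ± 0.33 and 0.81 ± 0.36 in WT (adjusted p = 0.885, 0.682 and 0.543). Of 10 tested mitochondrial iron and iron-sulphur cluster genes 0 passed, with 0 under an unadjusted p of 0.05.

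**Figure D4:**
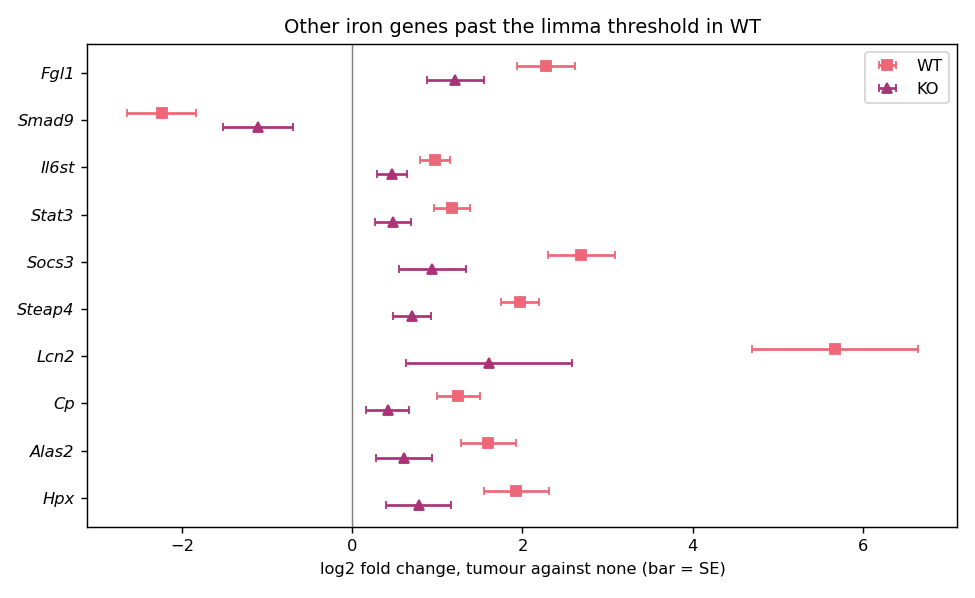
Log2 fold change, tumour against none, of the 10 other iron genes that passed limma's threshold in WT, in WT (squares) and KO (triangles), with bars for 1 SE. The genes were picked by their WT values, so the smaller KO values, for example 1.60 against 5.67 for Lcn2, are no comparison of the genotypes.

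The KO contrasts of these 10 genes, from -1.11 for Smad9 to 1.60 for Lcn2, were each closer to 0 than in WT, which the choice of genes by their WT contrast favours. The difference itself did not pass for any of the 75 genes (limma interaction, adjusted p = 0.859 for each of the 10, with 7 of 75 under an unadjusted p of 0.05, beside 4.7% of all genes). For KO against WT 0 of 75 passed either without a tumour (1 under an unadjusted p of 0.05, beside 1.93%) or with one (16, beside 14.4%). With a tumour the KO minus WT difference was -1.14 ± 0.22 for Steap4 (limma, adjusted p = 0.111), -0.78 ± 0.25 for Cp and -0.57 ± 0.18 for Il6st (adjusted p = 0.216 and 0.208). The ranges of each of these genes did not overlap. Of the 75 genes 2 were higher and 8 lower without overlap, beside 17.9% of all genes in either direction. When the second WT liver with a tumour was left out, 4 of 75 passed in this contrast, beside 211 of all tested genes. With the third KO liver with a tumour left out 1 passed, beside 8 of all tested genes. The calls in WT rest on few livers, as do those over all genes, of which 118 passed in the main fit. With each library left out in turn 1 to 11 of 75 passed, beside 11 to 208 of all tested genes. Without the second WT liver without a tumour or the third with a tumour 1 was left, beside 16 and 11. The counts were 2, 5 and 3 without the first or the third WT liver without a tumour or the first with one. Beside them 18, 67 and 20 of all tested genes passed. Cp and Alas2 each passed in 3 of these 12 fits, Hpx in 6, Il6st and Stat3 in 7, Smad9 and Lcn2 in 8, Fgl1 in 9 and Socs3 in 10.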

How the data were processed

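RNA from 12 snap-frozen, powdered livers was depleted of ribosomal RNA and sequenced, per the labels' protocols. The authors deposited 1 table whose signal is reads per gene divided by a size factor per library, per its name and the submitters' processing notes, which list STAR 2.7.8a, Partek, DESeq2 and build mm39. The sources used here do not give the counting program, annotation or use of strand, and overlapping or antisense genes cannot be told apart. Between 78% and 85.1% of low values were whole reads, too few for a count model.

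The 10 genes and all lists were chosen with earlier results of these data known. Genes reaching 10 in 3 or more libraries entered a limma 3.58.1 model (R 4.3.3, lmFit and eBayes with trend) of log2(value + 1), with 12 libraries in 1 fit and no block. P-values were two-sided, adjusted by Benjamini-Hochberg over all 17380 genes, threshold 0.05. The low genes' fold changes are understated by the pseudocount of 1. Named besides the 10 genes were 27 regulators and transporters picked by role, any listed gene past the threshold, the 5 genes most like Hamp and Hamp2, and 3 neighbours on each side. Ireb2 and Id4 were named after the values had been seen. Correlations used 100000 permutations, or all 1296 within groups. On simulated data with changes placed in WT with a tumour, the model recovered 18% of genes at a log2 change of 1. The share was 42% at 2, 56% at 3 and 68% at 4, with 4 of 17180 unchanged genes called. Genes that did not pass may therefore still have changed. Alternatives covered pseudocount, filter, scaling, spread, block, biotype and libraries left out. Group ranges under other scalings and alternatives for correlations were added after seeing the data. Sequences came from RefSeq and GENCODE M21. Replicates are different mice, so p-values measure the spread between mice.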

Additional observations from a re-analysis of the deposited data

How the results depend on the processing

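Of the 10 genes' contrasts some near 0 changed sign. In WT, Fth1 was 0.06 under quantile normalization and Smad7 0.31 under library weights. In KO, Id1 was -0.05 under quantile normalization and -0.36 under library weights, and Smad7 was 0.10 without both libraries that stand apart. For KO against WT without a tumour Hamp was -0.56 without those 2 libraries. With each library left out in turn, tumour against none in WT ran from -0.32 to 0.10 for Fth1, -0.86 to 0.17 for Id1 and -0.60 to 0.34 for Smad7. In KO it ran from -0.39 to 1.14 for Hamp, -0.36 to 0.58 for Id1 and -1.18 to 0.01 for Smad7. KO against WT without a tumour ran from -0.89 to 0.97 for Hamp and -0.76 to 0.18 for Tfrc. The causes were not tested.

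The number of the 10 genes past the threshold in WT was 0 under robust variance estimation, beside 118 of all tested genes. With each library left out it was 0 to 2, beside 11 to 208 of all tested genes. For KO against WT with a tumour, where it was 0, it was 1 with a pseudocount of 10, with no filter or under quantile normalization (Hamp2 in each). Passes of Hamp2 in this contrast use the WT livers that led to its choice, so they test nothing. Under library weights the number was 4, beside 1664 of all 17380 tested genes, of which 4 passed in the main fit. With each library left out it was 0 to 3, beside 2 to 211 of all tested genes. For the interaction it was 0 to 1. Of the other iron genes, 1 to 11 passed in WT and 0 to 4 for KO against WT with a tumour with each library left out. Library weights gave 1 in KO and 13 for KO against WT with a tumour, beside 14 and 1664 of all tested genes. The cause was not tested.

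The replicate numbers of the sample titles showed no pairing: over 18 same-numbered pairs r was -0.094 to 0.1. The deposited columns number the KO livers without a tumour differently, and pairing by those numbers was not tested. With the replicate number as a block, 1 of the 10 genes (Hamp2) was past the threshold for KO against WT in tumour-bearing mice, beside 13 of all tested genes. That pass uses the WT livers that led to the choice of Hamp2, so it tests nothing. In WT 8 in place of 10 other iron genes passed with this block, beside 89 in place of 118 of all tested genes. The median of all genes for KO against WT with a tumour was -0.124, -0.147 after rescaling to 1 total and 0.005 under quantile normalization. Depth limits Bmp6 most, at 17.7 to 97.3 normalized reads. Of values of single genes and gene pairs under all alternatives, 1097 kept direction and call, 85 lost the call, 14 gained it and 24 changed sign.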
